A study of Chromochloris zofingiensis with 18 samples.

Results

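Sulfur starvation of the green alga Chromochloris zofingiensis was followed here through 150 genes whose transcript level collapsed at 6 h and had returned to its starting level by 12 h. They were chosen from the 15220 genes that at least 1 sample listed. For each gene the mean of log2(FPKM + 1) was taken over the 3 replicates of a condition (FPKM, a read abundance corrected for transcript length and for the mapped reads of each sample). A gene qualified if this mean was at least 1 lower at 6 h than at 0 h, and within 0.5 of 0 h at 12 h. Of the 3330 genes that were at least 1 lower at 6 h, 844 met the second condition as well, and the 150 with the largest rise from 6 to 12 h were taken. Another 1520 genes were still at least 1 lower at 12 h and are called the still-low genes below.

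The 18 samples came from liquid cultures of strain ATCC30412, with 3 biological replicates in each of 6 conditions and no genetic change in any of them. Cultures started at 0.5 g/L under 80 µE m-2 s-1 of light and air with 1.5% CO2. The control was taken at 0 h, and no culture kept in sulfur throughout was sampled later. Effects of sulfur, of a change of medium and of time in culture therefore cannot be told apart. The 4 starved conditions, named SS with the hours (6, 12, 24 and 48), had spent that time in Kuhl medium whose magnesium sulfate had been exchanged for magnesium chloride, and SR-12 h was taken 12 h after sulfur was given back, which the sample records describe as a move to fresh Kuhl medium and the methods as an addition of sodium sulfate. 14351 to 14867 genes were listed per sample. The relative depth, read from the smallest steps between low FPKM values, was 0.753 in SS-6 h replicate 1 and 0.921 to 1.001 in the other 17 samples, with 0 h replicate 1 set to 1. The mRNA of cysteine synthase A (Cz03g05100), the enzyme that builds sulfide into cysteine, averaged 767 FPKM at 0 h, 2225 FPKM at SS-48 h and 786 FPKM at SR-12 h.

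Sulfur is needed for cysteine and methionine, and algae deprived of it slow growth and division while they rearrange metabolism. Microtubules are hollow polymers of alpha- and beta-tubulin dimers. In green algae they form the spindle that parts the chromosomes, the arrays that guide cytokinesis and, in flagellated cells, the axoneme, and kinesins and dyneins are the motors that walk along them.

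The fall at 6 h was deep and common to every replicate. The median FPKM of the 150 genes was 34.6 to 36.6 in the 3 samples of 0 h and only 3.60 to 4.53 in those of SS-6 h. It was 32.3 to 32.8 in the SS-12 h samples and 25.9 to 29.8 in the SS-24 h samples. In the SS-48 h samples it was 20.1 to 29.7, and in the SR-12 h samples 34.7 to 37.6. These are bulk samples, in which fewer cells expressing a gene and less RNA of it per cell cannot be told apart. Since the values at 0 h, SS-6 h and SS-12 h chose the genes, they are a description with no test. The difference from 0 h at SS-6 h ran from -4.65 to -1.87 on the log2(FPKM + 1) scale with a median of -2.67, against -0.17 over all genes. At SS-12 h it ran from -0.49 to 0.50 with a median of -0.12, and 97 of the 150 were still a little below 0 h and 53 a little above. As a ratio of mean FPKM, 0 h exceeded SS-6 h by 3.36- to 32.5-fold, with a median of 7.88. In all 150 genes the 3 SS-6 h samples lay below the 3 samples of 0 h and below the 3 of SS-12 h, where the rule left little room for anything else. Over all genes the 3 SS-6 h samples lay below those of 0 h in 40.7%. Of the 150 genes, 148 were listed in every sample, and 2 were listed at 0 in at least 1 SS-6 h replicate.

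**Figure D1:**
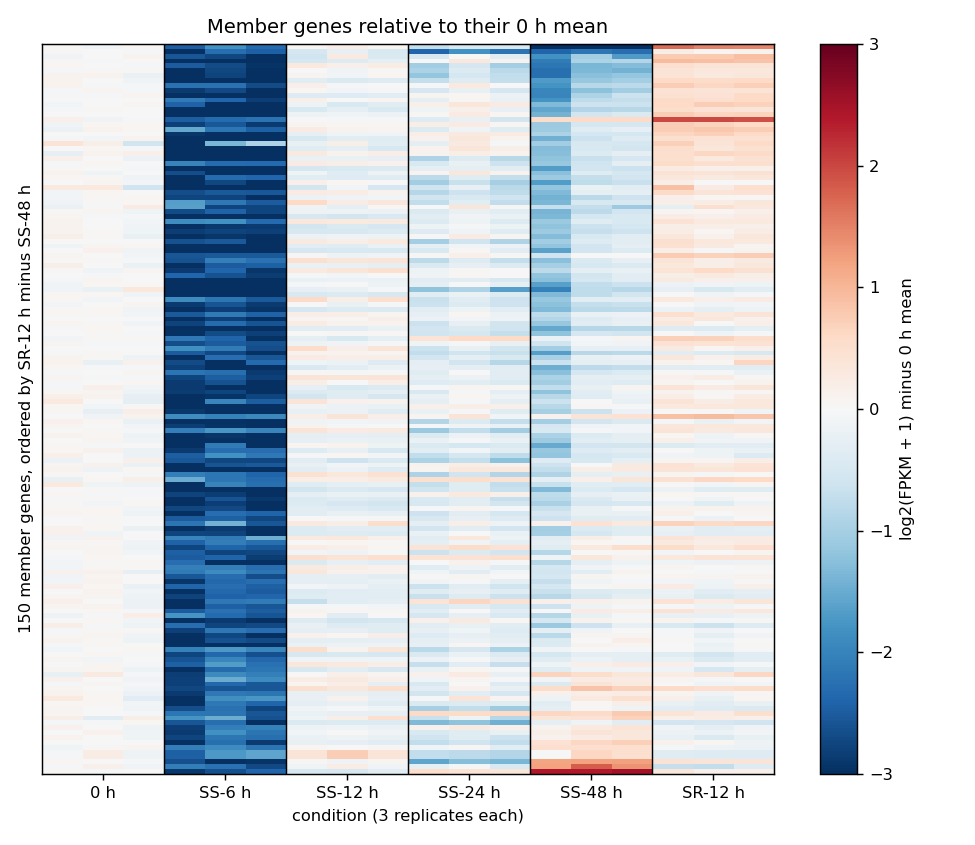
Each row is 1 of the 150 genes and each column 1 of the 18 samples, coloured by log2(FPKM + 1) minus the gene's mean at 0 h, with rows ordered by SR-12 h minus SS-48 h. The 3 SS-6 h columns are low in all rows, the first SS-48 h column is lower than the other 2 in most rows, and only a few rows at the bottom rise at SS-48 h.

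The rise from SS-6 h to SS-12 h, by which the genes were ranked, had a median of 2.55 and reached 4.25 in Cz12g14130 and 3.97 in Cz10g29030. At the lower end Cz08g15320 and Cz01g28010 were just inside with a rise of 2.09 each, and Cz09g06110 and Cz04g32260 just outside with 2.07 and 2.06. Most of the genes were of middling abundance. Their mean FPKM at 0 h ran from 5.22 to 1309 with a median of 35.9, 8 of them were at 100 or more and 3 under 10. In the other conditions the level was rarely as low again. The mean of log2(FPKM + 1) was lowest at SS-6 h in 149 of the 150, and the exception, Cz12g11010, was lowest at SS-48 h. It was highest at SR-12 h in 76 genes, at 0 h in 35, at SS-12 h in 20, at SS-48 h in 15 and at SS-24 h in 4.

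Only 2 of the 150 genes carried a name in the annotation used here, and both were tubulins, the subunits of microtubules. The main annotation covered just 592 genes, with only these 2 of the 150 among them. The scarcity of names, and which genes have one, therefore say little about the set. A further 13 appeared without a name in KEGG pathway or GO term lists, and 135 appeared in neither. These lists came from the study's comparisons on these same samples, and parts of them were not used here, so a gene without a term here may have one elsewhere.

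Tubulin alpha (Cz07g00160) was the most abundant of the 150. It measured 1329, 1308 and 1291 FPKM at 0 h, 301, 251 and 184 FPKM at SS-6 h, and 1464, 1319 and 1390 FPKM at SS-12 h. It then measured 1084, 1366 and 1147 FPKM at SS-24 h, 376, 769 and 802 FPKM at SS-48 h, and 1949, 1853 and 1971 FPKM at SR-12 h. It was thus low a second time, at SS-48 h, with every SS-48 h sample below every SS-24 h sample and replicate 1 lowest by a wide margin, and all SR-12 h samples were above every other sample. Samples not used by the rule were compared with limma fitted to log2(FPKM + 1) of all 15220 genes, and a gene was called where the difference was at least 1 in size with a Benjamini-Hochberg adjusted p of at most 0.05. In Cz07g00160 the difference of SS-48 h from SS-24 h was -0.96 ± 0.23 (SE, limma adjusted p = 0.0021), just short of a call. With median-ratio scaling it was called (-1.20). Both differences include the low SS-48 h replicate 1 and rest in part on it. SR-12 h exceeded SS-48 h in Cz07g00160 by 1.65 ± 0.23 (limma adjusted p = 1.3e-05).

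Tubulin beta (Cz07g32070), the partner subunit, followed the same course. It measured 1125, 1021 and 997 FPKM at 0 h, 222, 222 and 162 FPKM at SS-6 h, and 1165, 999 and 1035 FPKM at SS-12 h. It measured 1002, 1279 and 1052 FPKM at SS-24 h, 302, 591 and 604 FPKM at SS-48 h, and 1742, 1622 and 1716 FPKM at SR-12 h. Here too the SS-48 h samples were all below the SS-24 h samples and the SR-12 h samples above all others. Cz07g32070 was called lower at SS-48 h than at SS-24 h (-1.21 ± 0.21, limma adjusted p = 0.00014), a call that was lost without SS-48 h replicate 1, and higher in SR-12 h than in SS-48 h (1.83 ± 0.21, limma adjusted p = 1.7e-06).

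A second tubulin alpha gene, Cz11g05030, fell further and came back later. It did not belong to the 150, because at SS-12 h it still differed from 0 h by -1.18. It averaged 884 ± 5.14 FPKM at 0 h, 70.6 ± 10.7 FPKM at SS-6 h and 391 ± 7.38 FPKM at SS-12 h (SD, n = 3 each), and regained 1055 ± 107 FPKM only at SS-24 h. At SS-12 h its 3 samples lay below its 3 samples of 0 h, whereas those of Cz07g00160 overlapped with 0 h. How reads common to both tubulin alpha genes were divided between them was not tested.

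3 unnamed genes of microtubule lists were also among the 150. Cz05g34130, listed under microtubule motor activity, measured 35.6, 37.6 and 34.8 FPKM at 0 h, 3.49, 3.38 and 2.94 FPKM at SS-6 h, 27.8, 29.4 and 25.5 FPKM at SS-12 h, 39.1, 46.7 and 40.7 FPKM at SS-24 h, 14.0, 25.8 and 24.0 FPKM at SS-48 h, and 52.5, 45.6 and 49.7 FPKM at SR-12 h. Like the tubulins it was low again at SS-48 h, and its SS-48 h and SR-12 h samples did not overlap. It was called higher in SR-12 h than in SS-48 h (1.22 ± 0.16, limma adjusted p = 8.6e-06), which was lost without SS-48 h replicate 1.

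Cz18g10030, listed under the same motor term, measured 24.6, 25.8 and 20.8 FPKM at 0 h, 2.34, 4.07 and 4.02 FPKM at SS-6 h, 17.9, 20.0 and 16.8 FPKM at SS-12 h, 18.5, 22.4 and 18.7 FPKM at SS-24 h, 10.2, 17.7 and 18.4 FPKM at SS-48 h, and 23.4, 21.3 and 20.4 FPKM at SR-12 h. Cz07g21050, listed under the microtubule organizing center, the structure from which microtubules grow, measured 34.7, 36.7 and 36.1 FPKM at 0 h, 3.27, 5.08 and 3.93 FPKM at SS-6 h, 26.4, 27.5 and 26.1 FPKM at SS-12 h, 25.9, 27.9 and 21.9 FPKM at SS-24 h, 20.1, 26.3 and 30.6 FPKM at SS-48 h, and 35.8, 32.6 and 35.5 FPKM at SR-12 h. Neither gene was called in any of the 5 later comparisons tested below, and apart from SS-6 h their samples stayed between 10.2 and 36.7 FPKM. In Cz18g10030 the SS-48 h samples nevertheless all lay below the SS-24 h samples, with a difference of -0.38.

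**Figure D2:**
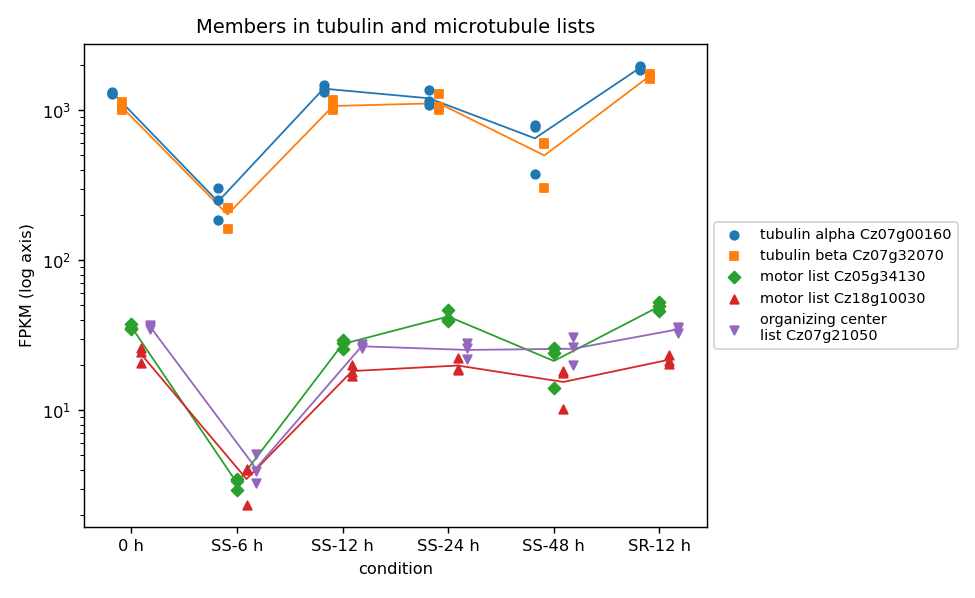
FPKM (log axis) of the 2 tubulins and 3 further genes of microtubule lists in each sample (points), with lines through the means of the 6 conditions. All 5 are lowest at SS-6 h. The tubulins and Cz05g34130 dip again at SS-48 h, where replicate 1 is the lowest point, and Cz18g10030 dips less.

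Most genes of the same lists returned later than these. Among 18 genes that the annotation names as tubulins, kinesins, cyclins, condensin and kinetochore subunits, histones or replication and repair factors, 17 were at least 1 lower at SS-6 h, but only 4 of those 17 were within 0.5 of 0 h at SS-12 h and 11 were still at least 1 lower. The 4 were the 2 tubulins of the set, the SPIRAL1-type gene Cz13g09140, whose relatives in plants bind microtubules, and histone H3 Cz19g02230, and the latter pair fell too little at SS-6 h to be ranked among the 150. Of the 23 genes listed under microtubule motor activity, 19 were at least 1 lower at SS-6 h, 3 of these were back within 0.5 at SS-12 h and 13 were not yet within 1. Of the 18 genes of the microtubule organizing center list, the same counts were 16, 3 and 10. The study chose the motor and organizing center lists on the SS-6 h samples. The search for the 18 named genes also included the study's genes of largest change at SS-6 h. The falls at 6 h in all of these lists are therefore not independent evidence. The later dip was not shared equally by these lists. Of the 18 named genes 10 were called lower in SS-48 h than in SS-24 h and none higher, and 13 were called higher in SR-12 h than in SS-48 h and none lower. Of the 23 motor genes 11 were called lower and 1 higher in the first comparison, and 11 higher and 1 lower in the second. Of the 18 genes of the organizing center list only 3 were called lower in the first and 4 higher in the second. Over all genes 6.59% were called lower and 13.1% higher in the first, and 8.21% higher and 18% lower in the second. These list counts were not repeated without SS-48 h replicate 1.

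Lists from photosynthesis and protein synthesis held none of the 150. With 150 members among 15220 genes, lists of this size would hold few or none in any case, so their absence says little. All 18 antenna genes that were checked, whose proteins funnel light to the photosystems, were outside the set, although 17 were at least 1 lower at SS-6 h, because 10 were still that low at SS-12 h and 1 was within 0.5. The 25 genes of carbon fixation held no member either, with 13 that fell and 6 that returned within 0.5. Of 165 genes tabulated by the study for its pathways of interest 20 fell by at least 1 at SS-6 h, 9 were back within 0.5, and none ranked among the 150. The parts used here of the lists for cilia, photosynthesis, porphyrin metabolism, the ribosome, its biogenesis and the proteasome held 28 to 47 genes each and no member. Of the 28 genes each for the ribosome, its biogenesis and the proteasome, only 0, 2 and 2 were at least 1 lower at SS-6 h.

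The later course of the set was compared in 5 contrasts with the same fit and the same threshold for a call. At SS-24 h the 150 genes were mostly a little below 0 h, with a median difference of -0.28 against -0.02 over all genes. Only 4 were called lower, beside 6.89% of all genes, and none higher, beside 4.57%. Regardless of size, 51 were lower, beside 24.7% of all genes, and 6 higher, beside 21.2%, at an adjusted p of at most 0.05. At an unadjusted p under 0.05 the counts were 59 and 6. Within 0.5 of 0 h there were 105 of the 150, a share near the 67.6% of all genes. This comparison, and SR-12 h against 0 h, share with the rule the 0 h samples.

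Between SS-24 h and SS-48 h the median of the set moved down while the median gene moved up. The fall of the set depended on SS-48 h replicate 1, without which its median difference was -0.01. With all samples the median difference was -0.19 against 0.22 over all genes, and 100 of the 150 were lower and 50 higher. Of the 150, 8 were called lower (5.33%, beside 6.59% of all genes) and 8 higher (5.33%, beside 13.1%). The 3 samples of SS-48 h lay wholly below those of SS-24 h in 52 of the 150, beside 21.7% of all genes, and wholly above in 21, beside 49.3%. Scaling the samples by the median ratio over genes removes the upward shift of all genes at SS-48 h. The median of the 150 was then -0.42, and 20 were called lower, beside 8.57% of all genes, and 4 higher, beside 8.87%. Without scaling, the still-low genes moved down further than the 150. Their median difference was -0.43, with 37.2% of them called lower and 12% higher.

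Sulfur resupply was followed by a rise. The median difference of SR-12 h from SS-48 h was 0.57 in the 150 genes against -0.32 over all genes, and 124 of the 150 were higher. At SR-12 h 34 were called higher (22.7%, beside 8.21% of all genes) and 2 lower (1.33%, beside 18% of all genes). The SR-12 h samples lay wholly above the SS-48 h samples in 107 of the 150, beside 22.8% of all genes. The median of the still-low genes rose as well, by 0.53, but less uniformly, with 41.9% of them called higher and 19.9% lower. Scaled by the median ratio, 65 of the 150 were called higher, beside 11.7%, and among them were all 34.

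SR-12 h also exceeded SS-24 h, with a median difference of 0.42 against -0.01 over all genes and 134 of the 150 higher. In this comparison 16 were called higher (10.7%, beside 6.51% of all genes) and none lower, beside 9.13% of all genes. None of the 150 was lower at an unadjusted p under 0.05 either, whereas 27.3% of all genes were lower at an adjusted p of at most 0.05. The SR-12 h samples lay above all SS-24 h samples in 106, beside 33% of all genes. Against 0 h the difference at SR-12 h was small, with a median of 0.16 against -0.06 over all genes. There 2 were called higher, beside 4.99% of all genes, and none lower, beside 8.42%. Regardless of size, 30 were higher, beside 22.4% of all genes, and 6 lower, beside 28.9%, at an adjusted p of at most 0.05. At an unadjusted p under 0.05 the counts were 37 and 9, again without a share of all genes beside them. After resupply 125 of the 150 were within 0.5 of 0 h, against 61.5% of all genes.

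**Figure D3:**
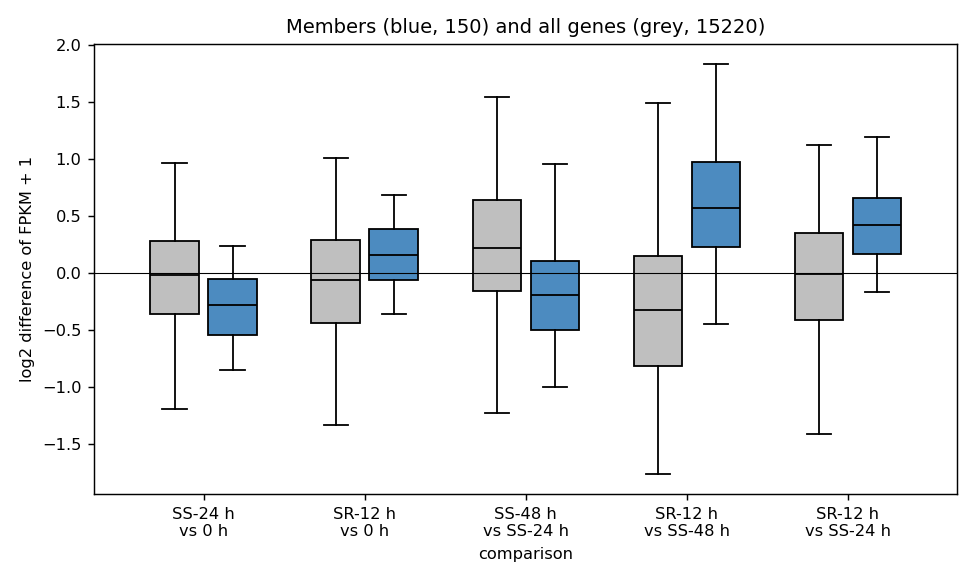
Log2 difference of FPKM + 1 in the 5 comparisons for the 150 genes (blue) and all 15220 genes (grey), with boxes from the lower to the upper quartile, a line at the median and whiskers from the 5th to the 95th percentile. The 150 genes sit below all genes for SS-48 h against SS-24 h (medians -0.19 and 0.22) and above them for SR-12 h against SS-48 h (medians 0.57 and -0.32). Without SS-48 h replicate 1, which is included here, the medians for SS-48 h against SS-24 h are -0.01 and 0.21.

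The 150 genes also moved together between replicates of 1 condition, in samples that had no part in choosing them. SS-48 h replicate 1 was the lowest of its 3 samples in 143 of the 150 genes (95.3%), but in 33.7% of all genes listed in those samples. SS-24 h replicate 2 was the highest of its 3 samples in 136 of the 150, but in 36.2% of all genes, and SR-12 h replicate 2 was the lowest in 99 of the 150, against 35.7%. The relative depth of the samples of these 3 conditions was 0.997 to 1.001. The contrasts with SS-48 h therefore rest in part on 1 sample. Without SS-48 h replicate 1 the median difference from SS-24 h was -0.01, still below the 0.21 of all genes. Then 4 of the 150 were called lower, beside 6.26% of all genes, and 3 of them were among the 8 above. Without it 20 of the 34 genes remained called higher in SR-12 h than in SS-48 h, beside 7.84% of all genes, and the median was 0.40 against -0.31. What set SS-48 h replicate 1 apart was not tested.

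A few genes left the common course after 12 h. Cz12g11010 had the widest range. It measured 66.0, 61.4 and 67.2 FPKM at 0 h, 10.8, 17.8 and 12.0 FPKM at SS-6 h, 67.7, 74.5 and 67.2 FPKM at SS-12 h, 38.9, 47.2 and 47.1 FPKM at SS-24 h, 4.66, 6.97 and 5.78 FPKM at SS-48 h, and 210, 182 and 180 FPKM at SR-12 h. All SS-48 h samples lay below every other sample, and the SR-12 h samples were the highest. It was lower at SS-48 h than at SS-24 h by -2.75 ± 0.15 (limma adjusted p = 1e-09), higher in SR-12 h than in SS-48 h by 4.83 ± 0.15 (limma adjusted p = 1.6e-12) and above 0 h in SR-12 h by 1.54 ± 0.15 (limma adjusted p = 7.7e-07).

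Cz15g10010 stayed low through starvation once it had fallen a second time. It measured 54.9, 53.9 and 51.8 FPKM at 0 h, 4.65, 10.2 and 9.06 FPKM at SS-6 h, 37.4, 44.8 and 38.5 FPKM at SS-12 h, 9.44, 14.4 and 10.9 FPKM at SS-24 h, 9.39, 11.2 and 10.3 FPKM at SS-48 h, and 60.3, 55.6 and 57.3 FPKM at SR-12 h. Its SS-24 h and SS-48 h samples overlapped with each other, and lay below all samples of 0 h, SS-12 h and SR-12 h. It was the gene with the largest fall from 0 h to SS-24 h (-2.13 ± 0.20, limma adjusted p = 4.2e-07) and was 2.38 ± 0.20 higher in SR-12 h than in SS-48 h (limma adjusted p = 4.8e-08). The other 3 genes called lower at SS-24 h than at 0 h were Cz01g09120, Cz14g21060 and Cz06g00200, by -1.41, -1.33 and -1.27.

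Cz11g10100, the only member listed under ascorbate and aldarate metabolism, measured 107, 112 and 123 FPKM at 0 h, 18.3, 16.4 and 10.3 FPKM at SS-6 h, 74.4, 140 and 84.5 FPKM at SS-12 h, 80.7, 113 and 90.8 FPKM at SS-24 h, 31.6, 54.8 and 34.6 FPKM at SS-48 h, and 192, 198 and 215 FPKM at SR-12 h. Its SS-48 h samples were below all SS-24 h samples and its SR-12 h samples above all others. It was called lower at SS-48 h than at SS-24 h (-1.24 ± 0.24, limma adjusted p = 0.00045) and higher at SR-12 h (2.33 ± 0.24 over SS-48 h, limma adjusted p = 6.2e-07).

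Cz13g00110 was the member that rose most over its starting level after resupply. It measured 28.6, 23.7 and 25.04 FPKM at 0 h, 3.85, 4.4 and 4.74 FPKM at SS-6 h, 25.9, 24.6 and 25.03 FPKM at SS-12 h, 19.5, 21.8 and 17.1 FPKM at SS-24 h, 38.0, 38.8 and 38.7 FPKM at SS-48 h, and 104, 104 and 102 FPKM at SR-12 h. The replicates lay close together and the SR-12 h samples stood clear of all others. SR-12 h exceeded 0 h by 1.96 ± 0.09 (limma adjusted p = 2.3e-10) and SS-24 h by 2.35 ± 0.09 (limma adjusted p = 2.9e-11).

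Of the 150 genes 8 were called higher at SS-48 h than at SS-24 h, 4 of them also with median-ratio scaling. Cz12g05120 measured 11.6, 11.01 and 11.3 FPKM at 0 h, 0.66, 0.97 and 1.37 FPKM at SS-6 h, 7.83, 7.62 and 8.71 FPKM at SS-12 h, 16.8, 15.4 and 14.9 FPKM at SS-24 h, 64.3, 64.3 and 69.0 FPKM at SS-48 h, and 14.6, 12.7 and 12.7 FPKM at SR-12 h. Its SS-48 h samples were far above all others. It rose by 2.0 ± 0.11 from SS-24 h to SS-48 h (limma adjusted p = 1.2e-09) and was lower by -2.22 ± 0.11 at SR-12 h (limma adjusted p = 2.2e-10).

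Cz02g06160, the other gene called lower in SR-12 h than in SS-48 h, behaved alike. It measured 24.1, 28.02 and 23.4 FPKM at 0 h, 5.19, 4.54 and 3.01 FPKM at SS-6 h, 22.9, 29.7 and 23.4 FPKM at SS-12 h, 20.6, 23.9 and 18.0 FPKM at SS-24 h, 58.9, 91.5 and 65.8 FPKM at SS-48 h, and 15.2, 14.5 and 18.9 FPKM at SR-12 h. Its SS-48 h samples were again above all others, with a rise of 1.73 ± 0.19 (limma adjusted p = 1.2e-06) and a later difference of -2.07 ± 0.19 (limma adjusted p = 1.1e-07).

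Cz01g09120 had 2 falls and 2 recoveries. It measured 22.5, 21.7 and 20.8 FPKM at 0 h, 2.64, 1.63 and 1.96 FPKM at SS-6 h, 22.2, 20.0 and 23.2 FPKM at SS-12 h, 6.56, 8.39 and 7.77 FPKM at SS-24 h, 50.1, 51.6 and 51.9 FPKM at SS-48 h, and 29.8, 28.6 and 28.5 FPKM at SR-12 h. Its SS-24 h samples lay below and its SS-48 h samples above all samples of 0 h, and the rise between them was 2.61 ± 0.11 (limma adjusted p = 7.8e-11), the largest in the set. In Cz12g11010, Cz15g10010, Cz11g10100, Cz13g00110, Cz12g05120, Cz02g06160 and Cz01g09120 the calls of the 5 comparisons were the same without SS-48 h replicate 1 and with median-ratio scaling.

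**Figure D4:**
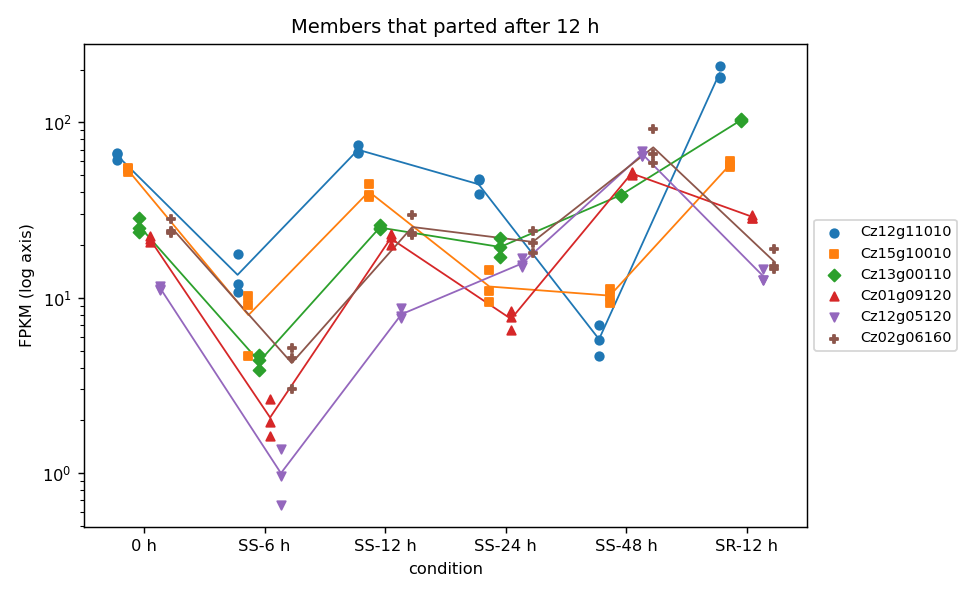
FPKM (log axis) of 6 of the 150 genes in each sample (points), with lines through the means of the 6 conditions. Cz12g05120, Cz02g06160 and Cz01g09120 peak at SS-48 h, Cz12g11010 is lowest there, and Cz12g11010 and Cz13g00110 are highest at SR-12 h.

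The genes with the deepest dips were mostly of the common course. Cz12g14130, first by rise, measured 87.5, 92.4 and 90.5 FPKM at 0 h, 1.42, 3.56 and 3.34 FPKM at SS-6 h, 65.5, 73.0 and 65.8 FPKM at SS-12 h, 81.9, 100 and 77.3 FPKM at SS-24 h, 30.1, 48.7 and 50.2 FPKM at SS-48 h, and 129, 123 and 117 FPKM at SR-12 h. The SS-48 h samples were between those of SS-6 h and all others, and SR-12 h exceeded SS-48 h by 1.53 ± 0.21 (limma adjusted p = 1.2e-05). Its fall from SS-24 h to SS-48 h was called (-1.02, limma adjusted p = 0.00069) but not without SS-48 h replicate 1.

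Cz10g29030, second by rise, measured 99.5, 92.9 and 86.6 FPKM at 0 h, 2.86, 4.51 and 3.52 FPKM at SS-6 h, 73.6, 68.6 and 70.4 FPKM at SS-12 h, 56.3, 71.1 and 55.8 FPKM at SS-24 h, 27.9, 41.4 and 45.6 FPKM at SS-48 h, and 140, 137 and 141 FPKM at SR-12 h. Its SR-12 h samples were above all others, by 1.87 ± 0.16 over SS-48 h (limma adjusted p = 5.4e-08). Of the other 8 genes with the 10 largest rises, Cz04g07220, Cz05g09090, Cz01g07200, Cz13g04250, Cz08g20110 and Cz08g20120 were called higher in SR-12 h than in SS-48 h, by 1.09 to 2.20, and Cz06g00200 and Cz12g03020 were not, with differences of 0.86 and 0.49. Of these 6 calls, 5 were lost without SS-48 h replicate 1, with differences of 0.80 to 0.99, and that of Cz05g09090 was not. With median-ratio scaling Cz06g00200 was called too, with 1.19. Cz08g20110 was listed at 0 in SS-6 h replicate 1 and at 1.74 and 2.34 FPKM in the other 2.

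Of the members that appeared under broad terms, Cz11g10100 and Cz04g07220, the latter listed under cellular macromolecule biosynthetic process, were called in later comparisons as given above, and 8 others were not. Cz10g19230, listed under macromolecule biosynthetic process, averaged 99.3 FPKM at 0 h, 18.7 FPKM at SS-6 h and 111 FPKM at SS-12 h, Cz10g20280, under organic substance biosynthetic process, averaged 56.9, 10.9 and 76.1 FPKM, and Cz08g29130, under anion binding, averaged 70.7, 11.3 and 78.2 FPKM. Cz12g08090, under biosynthetic process, averaged 33.6, 2.78 and 31.4 FPKM, Cz06g17230, under cytoskeletal part, averaged 24.0, 2.02 and 16.8 FPKM, and Cz13g08100, under non-membrane-bounded organelle, averaged 60.9, 9.42 and 43.5 FPKM at 0 h, SS-6 h and SS-12 h. None of these 6 was called in the 5 later comparisons, although with median-ratio scaling Cz10g20280, Cz10g19230 and Cz08g29130 were called higher in SR-12 h than in SS-48 h, by 1.27, 1.11 and 1.06, and Cz10g20280 also higher than in SS-24 h, by 1.02. The neighbours Cz03g38160 and Cz03g38170, listed under biosynthetic process terms, were called in none with either scaling.

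Many of the 150 genes were neighbours, which the rule did not look at. A gene's ID gives its chromosome and its order along it, and 148 of the 150 had such an ID. In the order of all listed genes 16 pairs of the 150 stood side by side, on 8 chromosomes, and they took in 30 genes. Thus 20.3% of the 148 were next to another of the set. Of the other 14216 genes with such an ID 1.83% were next to one of the 150, and of the genes that met the rule at a lower rank 3.25% were. There were 2 runs of 3, Cz01g27210, Cz01g27220 and Cz01g28010 on chromosome 1, and Cz07g29020, Cz07g29030 and Cz07g29040 on chromosome 7. Chromosome 1 held 20 of the set among 1268 listed genes (1.58%), chromosome 15 held 1 of 539 and chromosome 17 none of 270.

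Partners in a pair kept similar courses in the samples that the rule did not use. The median gap between partners in the log2 difference of SS-48 h from SS-24 h was 0.08, against 0.52 between any 2 of the 150 genes and 0.50 between any 2 adjacent genes. For SR-12 h against SS-48 h it was 0.15, against 0.62 and 0.59. The largest gap in these 2 comparisons, 0.71 and 0.82, was between Cz01g27210 and Cz01g27220. The pair with the largest later change was Cz03g21130 and Cz03g21140. Cz03g21130 averaged 71.6, 10.2, 83.5, 40.0, 23.6 and 96.5 FPKM in the order of the time course, SR-12 h last. Cz03g21140 averaged 64.5, 6.67, 65.0, 36.9, 22.5 and 81.6 FPKM in the same order. Their SR-12 h levels exceeded those of SS-48 h by 2.04 and 1.90 (limma adjusted p = 2e-07 and 1.2e-05). Whether neighbours share reads, overlap or lie on opposite strands was not tested, as no gene coordinates were used.

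**Figure D5:**
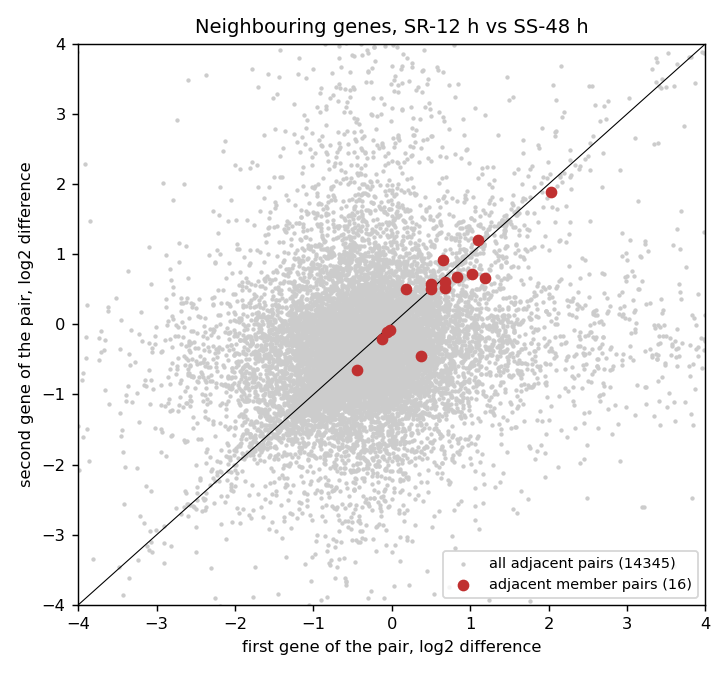
Log2 difference of SR-12 h from SS-48 h in the first (horizontal) and second (vertical) gene of each adjacent pair, for the 16 pairs among the 150 genes (red) and all 14345 adjacent pairs (grey, points beyond the axes not drawn). The red points lie along the line of equal change, with a median gap of 0.15, and the grey points scatter widely around it.

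In the runs of 3 the later course was not uniform. SS-48 h differed from SS-24 h by 0.65 in Cz01g27220 and in Cz01g28010, and by -0.06 in their neighbour Cz01g27210. In the run on chromosome 7 SR-12 h exceeded SS-48 h by 1.18 in Cz07g29020, 0.66 in Cz07g29030 and 0.92 in Cz07g29040, of which the first was large enough to be called, though not without SS-48 h replicate 1 (0.95). One further pair, Cz03g18300 and Cz04g36190, lay on different chromosomes but had the same FPKM in all 18 samples, 14.6, 18.0 and 13.6 at 0 h and 1.99, 3.9 and 4.4 at SS-6 h, as did 128 of all genes with at least 1 other gene. Their values may therefore be 1 measurement divided between copies, and both are among the 8 called higher at SS-48 h than at SS-24 h, though neither with median-ratio scaling.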

How the data were processed

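The 18 samples were sequenced as single-end reads of poly-A RNA. Per the study's methods the authors aligned reads with HISAT to the genome and with Bowtie2 to the reference genes and quantified them with RSEM (versions not given in the sources used here). The deposited values are FPKM per gene, rounded to 0.01, and a gene that a sample did not list was taken as 0. The values do not give depth in reads, and only relative depth was estimated from them. The study reports similar numbers of clean reads for all samples, but the smallest share mapped to genes in SS-6 h replicate 1. Replicates were grouped by the sample titles.

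The members, lists and tests were chosen with earlier results of these data known, and samples at 0 h, SS-6 h and SS-12 h chose the members. log2(FPKM + 1) of all samples and 15220 genes was fitted with limma 3.58.1 in R 4.3.3 (empirical Bayes with a mean-dependent trend, Benjamini-Hochberg adjustment). The +1 understates changes of low genes. The fit was tested on simulated data. Named were members with a name or term, the 10 with the largest rise, 2 on each side of the limit, the 3 largest called changes per comparison and direction, and runs of neighbours. Other genes named, and the pair with identical values, were chosen after their values were seen. Gene names and terms are those the study's tables pair with IDs. Alternatives were other pseudocounts (0.1 and 0.5), a minimum mean FPKM of 1, median-ratio scaling, a fit of the compared conditions only, a replicate block, and each replicate left out. No genome or sequence was used.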

Additional observations from a re-analysis of the deposited data

How the results depend on the processing

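Of 142 recomputed counts 132 stayed within 1.5 times the reported one. Median-ratio scaling changed 4: members higher at SR-12 h than at 0 h (4 in place of 2), higher and lower at SS-48 h than at SS-24 h (4 and 20, in place of 8 and 8), and higher in SR-12 h than in SS-48 h (65 in place of 34). Scaling shifts the median of all genes from 0.22 to 0.02 for SS-48 h against SS-24 h and from -0.32 to -0.03 for SR-12 h against SS-48 h. With single replicates left out, members lower at SS-24 h than at 0 h numbered 4 to 9 (9 without SS-24 h replicate 2), lower at SS-48 h than at SS-24 h 4 to 15 (13 without SS-24 h replicate 1, 15 without SS-48 h replicate 2, 13 without SS-48 h replicate 3 and 4 without SS-48 h replicate 1), and higher in SR-12 h than in SS-48 h 20 to 50 (20 without SS-48 h replicate 1). The cause of these changes was not tested.

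The rule kept 143 of the 150 genes with a pseudocount of 0.5, 143 after median-ratio scaling and 131 to 144 with a replicate left out. The fewest were kept without SS-6 h replicate 1, the sample of lowest relative depth. Adjacent pairs numbered 13 to 17 under the same changes, an alternative chosen after seeing the data.

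Same-numbered replicates did not pair: in 0 of 15 pairs of conditions were all 3 correlations of their deviations above 0.1 (range -0.58 to 0.36). A replicate block left 34 members higher in SR-12 h than in SS-48 h and every other count as reported. With 3 samples per condition and no read counts, precision rests on the spread between replicates, and small differences of low genes could not be resolved.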
